A study of Rattus norvegicus with 18 samples.

Results

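Cell cycle and proliferation genes were examined in whole kidneys of 18 rats, 9 from the salt-sensitive strain Dahl S (SS/Jr) and 9 from the congenic strain S.SHR(2), each on its own Affymetrix Rat Genome 230 2.0 array. The members were 38 genes chosen by name for their role in cell division, and each was represented by its brightest probe set, the one with the highest mean log2(intensity + 16) over the 18 arrays. Of the 38, 36 had a probe set that named the gene alone, and 27 of those passed the filter on dim probe sets, out of 10483 genes tested in all. Rrm2, the small subunit of ribonucleotide reductase, was matched by probe sets that also name Rrm2l1 and was not used, and Tpx2 had no probe set in the annotation used here.

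Dahl S rats are inbred and prone to high blood pressure and renal injury. The congenic was derived from SS/Jr and SHR/NHsd, and its name places the SHR segment on chromosome 2, so both groups share the SS/Jr background and differ by a stretch that holds many genes. The design text speaks of male rats of 4, 12 and 20 weeks with 3 per strain and age, but the labels give an age for 2 rats only, both male Dahl S on a low-salt diet of 0.3% NaCl. One is labelled 4 weeks (replicate 2) and the other 12 weeks (replicate 4). The remaining 16 rats were placed in no age group, and the order in which samples were deposited was not used to place them. Replicate numbers follow the order of deposit and give no age. Below, replicates 1 to 3, 4 to 6 and 7 to 9 are described together. These groups match sets of arrays found from the data, apart from S.SHR(2) replicate 1, whose array stood alone.

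A dividing cell passes through a phase of DNA synthesis and then through mitosis. Before synthesis, the MCM helicase is loaded onto DNA, and enzymes of nucleotide supply provide its building blocks. Mitosis is then driven by the kinase Cdk1 with its cyclins, checked at the kinetochores, and ended when the anaphase-promoting complex marks cyclins for destruction. Cells of the adult kidney divide rarely, whereas the kidney of a young animal still grows, and tubule cells can re-enter the cycle after injury.

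Genes of the synthesis phase are known targets of E2F factors, and genes of mitosis are known targets of complexes that bind the CHR element together with CCAAT boxes. The 150 bases before the start site are shown for 7 members (RefSeq, assembly GRCr8), because they show how these letters fall in genes of mitosis and of synthesis. They are written 5′ to 3′ along the gene, with matches in capitals to CCAAT, to the CHR letters TTTGAA, or to E2F letters, each on either strand. The E2F letters were TTCCCGC in one form, with TTCGCGC as a second, TTGCCGC as the next and TTGGCGC as the last. Ccnb2 (chr8:79981659-79981808, minus strand), Cdk1 (chr20:19265143-19265292, plus strand), Cks2 (chr17:13727520-13727669, minus strand) and Cdc20 (chr5:137255800-137255949, minus strand) act in mitosis. Mcm5 (chr19:13488663-13488812, plus strand) and Mcm6 (chr13:42404353-42404502, minus strand) act in synthesis. Melk (chr5:63336001-63336150, plus strand), a protein kinase of proliferating cells, is shown because its level went against most members.
Ccnb2: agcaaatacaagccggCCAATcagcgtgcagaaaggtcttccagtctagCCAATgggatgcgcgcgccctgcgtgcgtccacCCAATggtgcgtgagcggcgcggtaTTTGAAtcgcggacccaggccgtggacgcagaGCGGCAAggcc
Cdk1: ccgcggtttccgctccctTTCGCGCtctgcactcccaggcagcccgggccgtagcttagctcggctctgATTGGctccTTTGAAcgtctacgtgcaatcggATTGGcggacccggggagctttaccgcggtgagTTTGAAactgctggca
Cks2: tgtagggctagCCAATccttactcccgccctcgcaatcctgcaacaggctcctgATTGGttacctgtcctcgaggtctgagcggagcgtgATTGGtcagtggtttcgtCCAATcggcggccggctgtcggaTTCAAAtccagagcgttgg
Cdc20: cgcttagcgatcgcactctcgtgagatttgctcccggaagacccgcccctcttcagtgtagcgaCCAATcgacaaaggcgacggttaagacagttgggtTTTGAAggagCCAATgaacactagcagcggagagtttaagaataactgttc
Mcm5: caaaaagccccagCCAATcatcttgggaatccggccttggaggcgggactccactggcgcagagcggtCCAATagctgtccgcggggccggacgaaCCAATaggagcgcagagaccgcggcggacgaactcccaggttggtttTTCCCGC
Mcm6: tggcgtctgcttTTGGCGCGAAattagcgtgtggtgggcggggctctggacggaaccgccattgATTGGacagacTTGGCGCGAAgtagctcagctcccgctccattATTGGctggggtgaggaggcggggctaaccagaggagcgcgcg
Melk: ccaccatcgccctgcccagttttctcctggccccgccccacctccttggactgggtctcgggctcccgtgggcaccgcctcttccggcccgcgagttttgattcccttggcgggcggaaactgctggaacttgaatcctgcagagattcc

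The windows of Ccnb2 and Cks2 hold 3 and 4 CCAAT matches with 1 CHR match each, that of Cdk1 holds 2 of each, and that of Cdc20 holds 2 CCAAT matches and 1 CHR match. Ccnb2 and Cdk1 also have 1 E2F match each. Those of Mcm5 and Mcm6 hold CCAAT and E2F matches and no CHR match. In Mcm6 the 4 E2F matches are 2 pairs that overlap on opposite strands. The Melk window holds no match to any of these letters. A promoter of 300 bases (250 before to 50 after the start) was in the RefSeq table for 30 members. CHR letters were in 14 of 19 promoters of mitotic members (73.7%) and in 1 of 7 of replication members (14.3%), against 18.3% of all 33469 promoters. E2F letters were in 6 of 7 promoters of replication members (85.7%) and in 3 of 19 of mitotic members (15.8%), against 9.52% of all. CCAAT was in 21 of the 30 (70.0%), against 37.5% of all. These are matches of letters and show no binding.

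The arrays were scaled alike, with a trimmed mean of 150 units, and no 2 arrays were identical. Some kidney markers were bright in every rat, with intensities of at least 5258 for Umod (thick ascending limb), 4672 for Slc34a1 (proximal tubule) and 1662 for Aqp2 (collecting duct). Nphs1 of the same list was dim, at 72.9 to 120.2 in Dahl S and 74.9 to 124.5 in S.SHR(2). By average-linkage clustering over 18449 probe sets that name none of the listed genes, the arrays were cut into 4 groups. This number was chosen after the data were seen, and it gave 3 sets and 1 array alone. A cut into 2 groups parted set 3 from all other arrays. Set 1 held Dahl S replicates 1 to 3 with S.SHR(2) replicates 2 and 3, set 2 held replicates 4 to 6 of both strains, and set 3 held replicates 7 to 9 of both strains. The array of S.SHR(2) replicate 1 stood alone at this cut and had the highest GAPDH 3′/5′ signal ratio, a measure of RNA integrity (2.51, against 1.19 to 2.04 for the other arrays). It correlated with set 1 at a median of 0.963, near the median of 0.964 between sets 1 and 2. Within the 3 sets arrays correlated at 0.962 to 0.988, and between them at 0.928 to 0.971. These sets came from the data, and the labels do not name them. The rat labelled 4 weeks was in set 1 and that labelled 12 weeks in set 2, and whether the sets match the ages of the design was not tested. Strain was compared within them, and no test was made between them.

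Most members were dim. Of the 27 tested, 20 had a mean intensity under 100, while array medians ran from 41.4 to 51.5. The 9 members under the filter were Ccne1, Ccna2, Plk1, Aurka, Aurkb, Gmnn, Bub1b, Ttk and Kif2c, with intensities from 0.8 to 60 over all rats. They encode the late G1 cyclin E1, cyclin A2, 3 mitotic kinases, the licensing inhibitor geminin, a pair of checkpoint kinases and a kinesin that depolymerises microtubules. These were left out of the strain test of 10483 genes. With no filter on dim probe sets all 36 members were tested, and none was called (limma), where 9 of 14217 genes were. In whole-kidney RNA, fewer dividing cells and less message per cell cannot be told apart.

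**Figure D1:**
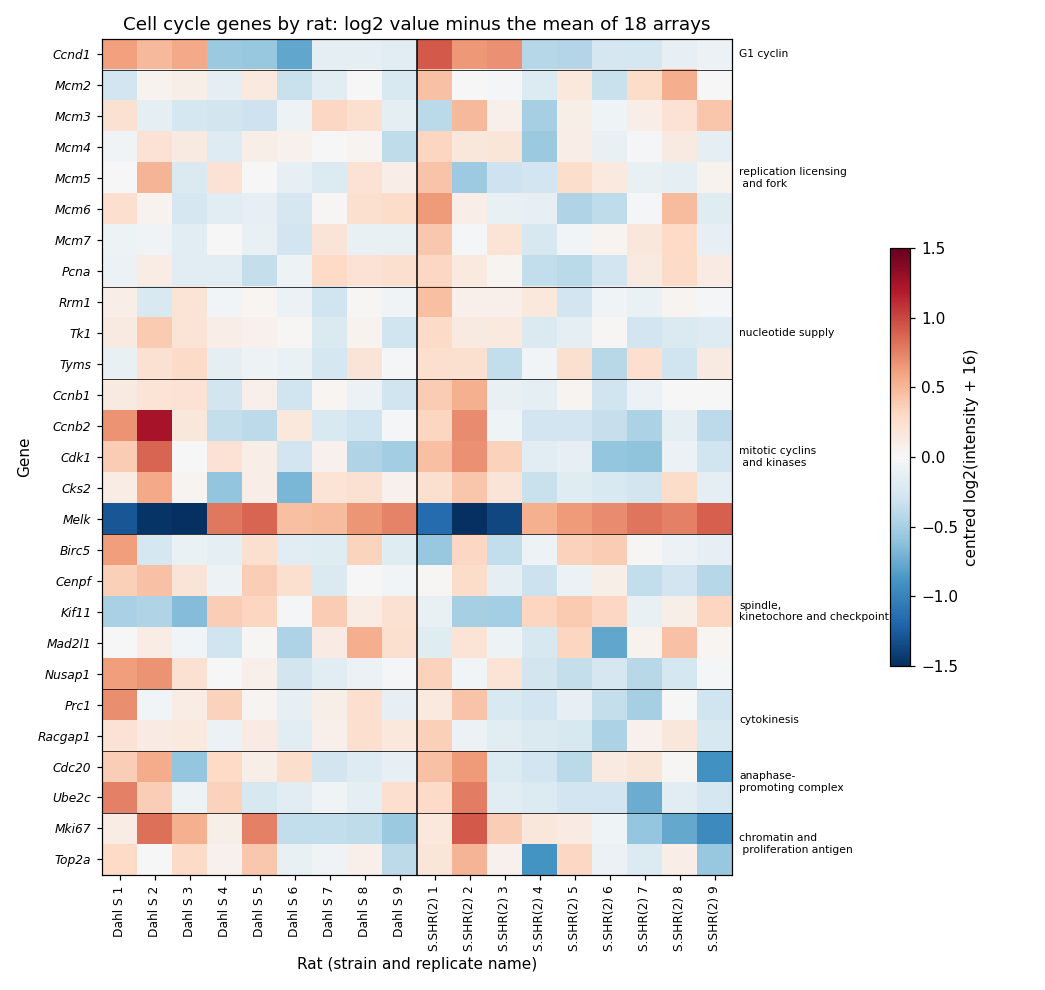
Heat map of the 27 tested members (rows, grouped by role) in 18 rats (columns, by strain and replicate name), coloured by log2(intensity + 16), quantile normalised, minus the gene's mean over 18 arrays, with the colour scale limited to 1.5 on either side. Ccnd1 is high, and Melk and Kif11 are low, in replicates 1 to 3 of both strains.

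Ccnd1, cyclin D1, the partner of Cdk4 and Cdk6 at entry into the cycle, was the brightest member. Its intensity in Dahl S ran from 914.8 over a median of 1374 to 2519, and in S.SHR(2) from 1160 over 1492 to 2953. The values fell into separate ranges within each strain. Replicates 1 to 3 of both strains lay between 2224 and 2953, and the other 12 rats lay between 914.8 and 1527. Over strains the ranges overlapped, and the log2 difference, S.SHR(2) minus Dahl S, was 0.15 ± 0.221 (SE, limma adjusted p = 0.999). A second probe set of Ccnd1 separated the same 6 rats (1384 to 1898 against 599.5 to 1227), but the third did not. This dimmest of the 3 gave 661.8 to 848.2 in replicates 1 to 3 of both strains and 673.6 to 886.0 in replicates 7 to 9, with 212.6 to 438.4 only in replicates 4 to 6.

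Melk showed the opposite pattern and the widest spread of any member (SD within strain 1.05 on the log2 scale). Replicates 1 to 3 of both strains lay between 32.0 and 45.3, and the other 12 rats lay between 172.3 and 246.1, with no overlap. The strains shared the same span, with medians of 183.2 in Dahl S and 199.4 in S.SHR(2). Melk has 1 probe set, so no second measurement of it was had. Kif11, the kinesin that pushes spindle poles apart, was likewise lower in these 6 rats, at 192.8 to 283.7 against 285.9 to 416.5 in the other 12. The second probe set of Kif11 gave 31.1 to 80.5 in the same 6 rats and 89.1 to 155.7 in the others. How many of all genes tested part these 6 rats from the other 12 was not counted. Differences between the array sets held 98.4% of the variance within strain of Melk, 96.8% of Ccnd1 and 86.8% of Kif11. The median over all genes tested was 49.8%.

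**Figure D2:**
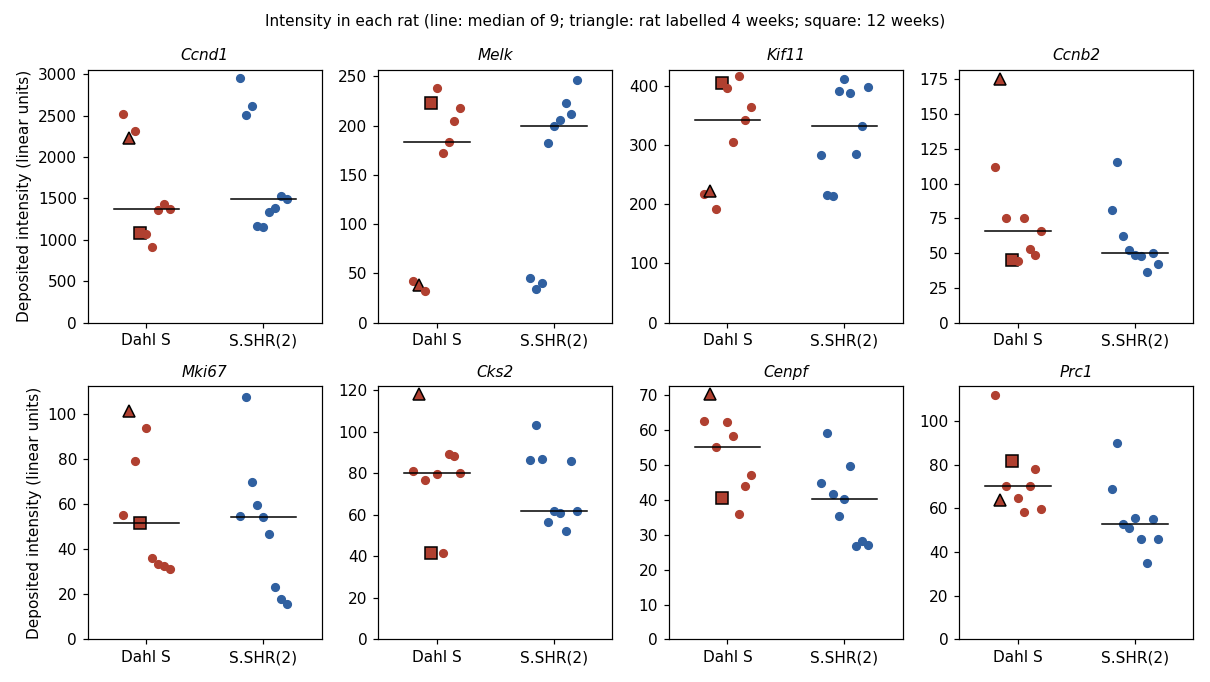
Deposited intensity (linear units, axes from 0) of 8 members in each rat of Dahl S (red) and S.SHR(2) (blue), with lines at the median of 9 rats, a triangle for the rat labelled 4 weeks and a square for the rat labelled 12 weeks. Ccnd1 and Melk fall into separate ranges within each strain, while the strains overlap for all 8 genes.

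Among the mitotic genes the highest rat differed by gene. Ccnb2, cyclin B2, ran from 44.4 over a median of 66.1 to 175.0 in Dahl S and from 36.6 over 50.4 to 115.6 in S.SHR(2). Its highest values were in Dahl S replicates 2 and 1 and S.SHR(2) replicate 2. Cdk1 ran from 28.2 over 50.1 to 101.8 in Dahl S and from 21.4 over 40.3 to 85.2 in S.SHR(2), again with Dahl S replicate 2 and S.SHR(2) replicate 2 at the top. Mki67, the Ki-67 antigen that coats mitotic chromosomes, ran from 31.0 over 51.4 to 101.3 in Dahl S and from 15.8 over 54.0 to 107.4 in S.SHR(2). Its lowest values, 15.8 to 33.2, were in replicates 7 to 9 of both strains. Top2a, the topoisomerase that untangles sister chromatids, had medians of 39.1 in Dahl S and 35.6 in S.SHR(2). It too was lower in replicates 7 to 9 of both strains (18.5 to 39.1) than in replicates 1 to 3 (41.6 to 61.0). Replicates 4 to 6 spread from 13.9, the lowest value, in S.SHR(2) replicate 4 to 54.4. A second Top2a probe set, under the filter, was not lower in Dahl S replicates 7 to 9 (22.7 to 33.8) than in 1 to 3 (18.1 to 25.8). In S.SHR(2) it gave 8.2 to 15.5 and 14 to 23.9. Cdc20, which activates the anaphase-promoting complex, ran from 32.3 over 59.4 to 92.6 in Dahl S and from 20.3 over 50 to 95.3 in S.SHR(2). Ube2c ran from 40.7 over 48.9 to 97.8 and from 20.1 over 39.8 to 98.4. Mad2l1, the checkpoint protein that holds Cdc20 back, had medians of 35.0 in Dahl S and 32.2 in S.SHR(2), and Birc5, survivin, a subunit of the Aurora B complex, of 34.3 and 33.3. For these 4 genes too the strains overlapped.

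The same rats recurred at the top for many members. S.SHR(2) replicates 1 and 2 were among the 6 highest rats for 20 of the 27 members each, Dahl S replicate 1 for 16, and Dahl S replicates 2 and 3 for 14 each. S.SHR(2) replicate 3 was among them for 8, and the other rats for 3 to 10. The same counts were not made over all genes tested, so this recurrence cannot be called particular to the members. Differences between the array sets held a median of 54.0% of the members' variance within strain, beside 49.8% over all genes tested. Dahl S replicate 2 was the highest rat for 7 members (Ccnb2, Cdk1, Cenpf, Cks2, Mcm5, Nusap1 and Tk1). S.SHR(2) replicate 1, the array alone in its group, was the highest for 7 others (Ccnd1, Mcm4, Mcm6, Mcm7, Pcna, Racgap1 and Rrm1). It thus led 4 genes of replication but none of the mitotic cyclins, and the part of RNA integrity in these values was not tested. The members' SD within strain had a median of 0.30 on the log2 scale (0.17 for Mcm7 to 1.05 for Melk), beside 0.23 over all genes tested. Most members were dim, and no comparison was made with genes of like brightness.

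The genes of replication had a median SD within strain of 0.25 over 7 tested members, from 0.17 for Mcm7 to 0.30 for Mcm6. Pcna, the clamp that holds polymerases on DNA, ran from 649.8 over a median of 789.0 to 1003 in Dahl S and from 627.5 over 910.2 to 1080 in S.SHR(2). The MCM helicase subunits Mcm2 to Mcm7 were between 21.1 (Mcm3) and 287.8 (Mcm7) over all rats. Mcm7 had medians of 200.1 and 218.5 in Dahl S and S.SHR(2), and Mcm2 of 91.9 and 101.1. Of the enzymes of nucleotide supply, Rrm1, the large subunit of ribonucleotide reductase, had medians of 218.5 and 228.8. Tk1, thymidine kinase, had medians of 89.7 and 74.8, and Tyms, thymidylate synthase, of 39.6 and 44.9. The ranges of the strains overlapped for each of these genes.

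The rats of labelled age allowed a comparison of 1 kidney with 1 kidney, without replicates or test. Of the 27 members, 20 were higher in the Dahl S rat of 4 weeks than in that of 12 weeks (74.1%), beside 52.2% of all genes tested, and the median log2 difference was 0.27, beside 0.02 over all genes. At least 1.5-fold higher were 6 members, or 22.2%, beside 5.16% of all genes. At least 1.5-fold lower were Melk and Kif11, beside 5.62% of all genes. Folds between these rats, here and below, were taken after quantile normalisation of log2(intensity + 16), so they differ from ratios of the deposited intensities. Ccnb2 had an intensity of 175.0 at 4 weeks and 45.2 at 12 weeks (3.02-fold on that scale). Cks2, a small subunit that binds Cdk1, had 117.9 and 41.4 (2.23-fold), and Ccnd1 2224 and 1077 (2.06-fold). Mki67 (1.66-fold), Nusap1, a spindle protein that bundles microtubules (1.60-fold), and Cdk1 (1.58-fold) followed. Melk had 38.0 at 4 weeks and 222.7 at 12 weeks (4.81-fold higher at 12 weeks on that scale), and Kif11 had 222.9 and 405.4 (1.76-fold).

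By role, the mitotic cyclins and kinases had a median log2 difference between these rats of 0.66 over 5 tested genes, and the genes of replication had 0.21 over 7, with none past 1.5-fold. The other mitotic roles had medians of 0.41 for 5 genes of spindle, kinetochore and checkpoint, 0.15 for 2 of the anaphase-promoting complex and −0.08 for 2 of cytokinesis. Chromatin genes had 0.34 for 2, and nucleotide supply 0.29 for 3. Cenpf, a kinetochore protein, had 70.4 at 4 weeks and 40.6 at 12 weeks (1.43-fold), and Ccnb1, cyclin B1, had 55.8 and 32.2 (1.39-fold). Prc1, the bundler of the central spindle, was lower in the rat of 4 weeks (63.7 against 81.5), and Birc5 had 32.6 and 31.1. For Ccnb2 and Cks2 the rat of 4 weeks was also the highest of all 18. For Ccnb2 its 175.0 stood beside 62.3 to 115.6 in the other replicates 1 to 3 of both strains, and for Cks2 its 117.9 beside 76.6 to 103.0. Of the fibroblast and matrix markers 7 of 8 were higher in the rat of 4 weeks (median log2 difference 0.89), with Col1a1 at 585.7 against 198.8. Of the macrophage markers 7 of 8 were lower (median −0.44), where 52.2% of all genes were higher. Of 11 injury markers 7 were lower, 4 of them by at least 1.5-fold (beside 5.62% of all genes), and none was higher by as much. Havcr1, the injury molecule KIM-1, had 21.7 at 4 weeks and 214.1 at 12 weeks (6.66-fold), Lcn2 42 and 120.8, Cd44 33.8 and 95, and Clu 717.2 and 1492. The part of these markers in the members' differences was not tested.

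**Figure D3:**
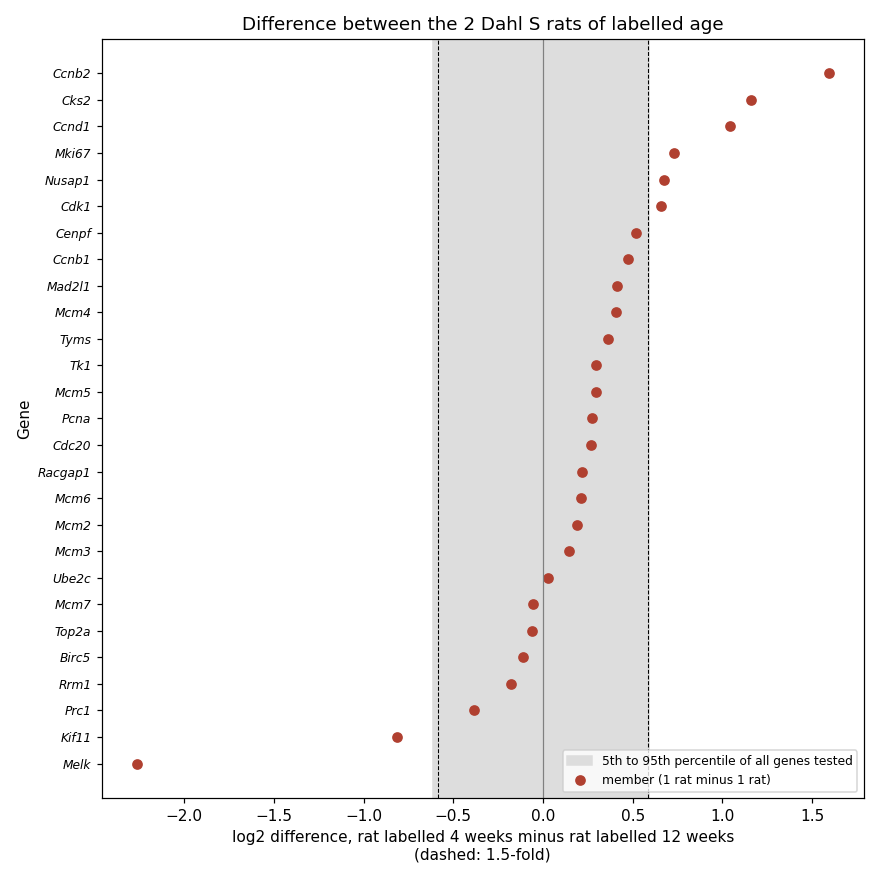
Log2 difference between the Dahl S rat labelled 4 weeks and that labelled 12 weeks for the 27 members (points, 1 rat minus 1 rat), with the band from the 5th to the 95th percentile of all genes tested (−0.62 to 0.59) and dashed lines at 1.5-fold. Ccnb2, Cks2 and Ccnd1 lie farthest to the right, and Melk farthest to the left.

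Other genes of the pathway were taken from lists of names, chosen, like the members, with earlier results of these data known. Of 24 tested mitotic genes outside the members, 16 (66.7%) were higher in the rat of 4 weeks, beside 52.2% of all genes. At least 1.5-fold higher were 7 (29.2%), beside 5.16% of all genes, with 2 lower by as much. Among the higher were Kif20a, a kinesin of the cleavage plane (90.7 against 29.5), Cdc25b, the phosphatase that activates Cdk1 (200.1 against 82.0), Cdca3 (102.9 against 43.9) and Pttg1, securin (103.7 against 46.7). Of 20 tested genes of replication, 15 (75%) were higher, with 2 (10%) past 1.5-fold, Mcm10 (49.1 against 10.2) and Gins3 (47.4 against 17.5). Both barely passed the filter on dim probe sets, with mean log2 values of 5.498 and 5.484 against a cut of 5.482. Of 14 tested inhibitors of the cycle 10 (71.4%) were higher, a share near the 74.1% of the members. None of them passed 1.5-fold, with the largest difference for Cdkn2d (120.3 against 71.6). Of 12 tested transcription factors of the cycle, Lin9, a subunit of the complex that binds CHR elements, was higher (58.3 against 15.2), and Myc was lower (20.4 against 41). Lin9 was dim as well (mean log2 5.62), and its values here were the highest and lowest of the Dahl S rats. Of 9 tested genes of juvenile growth 4 (44.4%) were higher, Plagl1 (314.7 against 191.4) and Igf2 (66.4 against 33.1) by at least 1.5-fold.

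Between the strains no member passed the test over all 18 rats. None of the 27 had an adjusted p under 0.05 (limma, lowest adjusted p = 0.999), where 6 of 10483 genes, or 0.0572%, did, and 2 members and 482 genes (4.60%) had an unadjusted p under 0.05. The ranges of the strains overlapped for all 27, and 0.0859% of all genes had ranges that did not. Lower in S.SHR(2), with a log2 difference below 0, were 18 members (66.7%), beside 43.4% of all genes. The members' median log2 difference was −0.03, beside 0.02 over all genes. Without Dahl S replicate 8 the count was 12 of 28 (42.9%, beside 42.9% of all genes) and the median 0.01. Within sets 1, 2 and 3 of the arrays 12, 17 and 19 of the 27 members were below 0 (44.4%, 63.0% and 70.4%, beside 46.2%, 49.3% and 42.9% of all genes).

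The members with an unadjusted p under 0.05, Cenpf and Prc1, both act in mitosis. Cenpf ran from 36.0 over a median of 55.2 to 70.4 in Dahl S and from 26.7 over 40.2 to 59.1 in S.SHR(2) (log2 difference −0.28 ± 0.115 SE, unadjusted p = 0.022). Prc1 ran from 58.2 over 70.0 to 111.9 in Dahl S and from 34.9 over 52.9 to 90 in S.SHR(2) (−0.27 ± 0.127, unadjusted p = 0.043). The lowest values of Cenpf, 26.7 to 28.2, were in S.SHR(2) replicates 7 to 9. Racgap1, a subunit of the centralspindlin complex that directs the cleavage furrow, differed by −0.18 ± 0.104, and Nusap1 by −0.24 ± 0.138. Ube2c, the ubiquitin-conjugating enzyme of the anaphase-promoting complex, differed by −0.24 ± 0.168, Ccnb2 by −0.21 ± 0.203 and Tk1 by −0.10 ± 0.100. In the other direction lay Mcm7 (0.16 ± 0.086), Mcm2 (0.19 ± 0.112) and Rrm1 (0.08 ± 0.088). The other 17 members lay between −0.14 and 0.15, among them Mki67 (−0.14 ± 0.241), Top2a (−0.13 ± 0.160), Cdk1 (−0.08 ± 0.193) and Ccnb1 (0.07 ± 0.117), the only tested member on chromosome 2. None of these differences passed the adjusted threshold.

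With the array sets as a block, a fit in which S.SHR(2) replicate 1 has a term of its own and so adds nothing to the strain difference, no member passed either, where 55 genes (0.525%) did. Cenpf was then at −0.28 ± 0.097, Prc1 at −0.29 ± 0.119, Racgap1 at −0.24 ± 0.089 and Nusap1 at −0.26 ± 0.098 (limma adjusted p = 0.305, 0.413, 0.360 and 0.363). Over the alternatives tried their adjusted p was at least 0.156, 0.262, 0.303 and 0.229. Ccnd1 was at 0.12 ± 0.053 (limma adjusted p = 0.447, and at least 0.220 over the alternatives). An unadjusted p under 0.05 was had by 5 of the 27 members, beside 10.2% of all genes. Within the single sets Cenpf differed by −0.27, −0.29 and −0.28, and Prc1 by −0.16, −0.34 and −0.34. Members lower in S.SHR(2) in each of the 3 sets were 8 (Ccnb2, Cenpf, Mcm6, Nusap1, Prc1, Racgap1, Tk1 and Ube2c), or 29.6%, beside 12.3% of all genes. Ccnb1, Mcm3 and Mcm7 were higher in S.SHR(2) in each set, or 11.1%, beside 17.8% of all genes. No member was called within a set, where 0.0191%, 0.0668% and 0.639% of all genes were called in sets 1, 2 and 3.

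**Figure D4:**
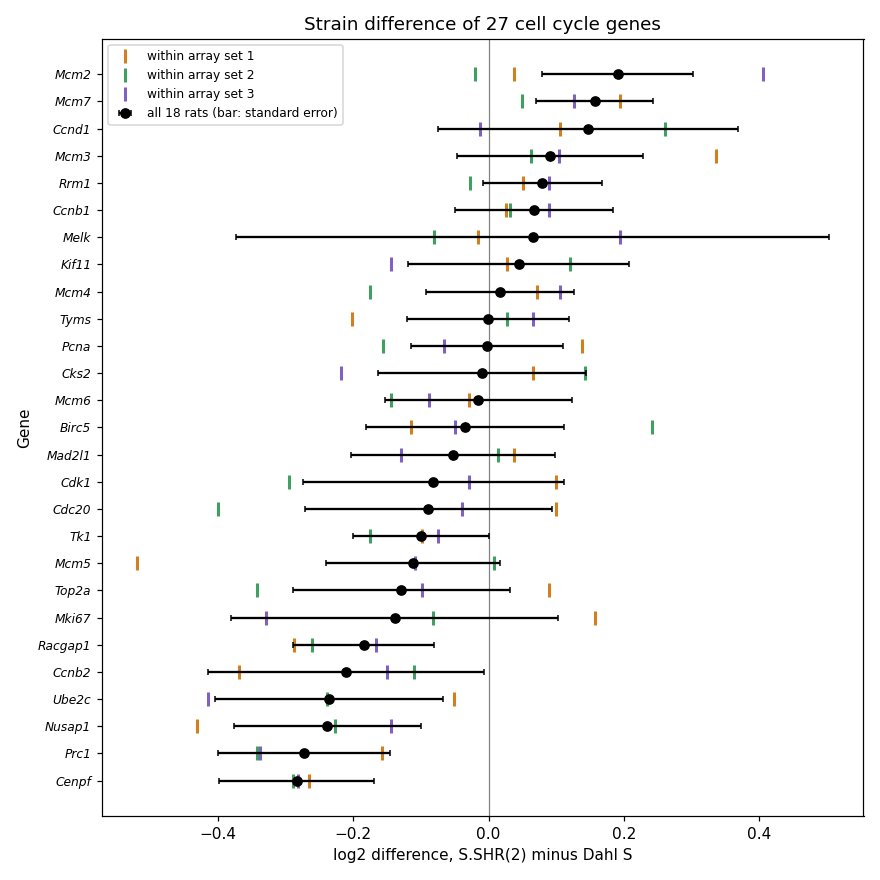
Log2 difference, S.SHR(2) minus Dahl S, of the 27 tested members over all 18 rats (black points, bars for the standard error) and within each of the 3 sets of arrays (coloured ticks). Cenpf, Prc1, Nusap1 and Racgap1 lie left of 0 over all rats and within each set, and none passed the adjusted threshold.

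The wider pathway held 1 gene that passed in the fit with array sets. Ect2, the exchange factor that activates RhoA at the cleavage furrow and is recruited there by Racgap1, lies on chromosome 2. Its intensity ran from 41.1 over a median of 58.3 to 77.4 in Dahl S and from 69.7 over 97.9 to 123.5 in S.SHR(2). The ranges overlapped, since the 3 lowest S.SHR(2) rats, replicates 1 to 3, lay between 69.7 and 83.1. The log2 difference was 0.58 ± 0.121 over 18 rats (limma adjusted p = 0.087) and 0.60 ± 0.114 with array sets as a block (limma adjusted p = 0.010). Within sets 1, 2 and 3 it was 0.28, 0.80 and 0.67. The call thus depended on the model. It was also made with array weights (limma adjusted p = 0.018), with 1 or 3 residual components as covariates (0.030 and 0.0065) and with the 2 main sets as a block (0.037). Leaving out S.SHR(2) replicate 3 (0.049) or the arrays with the 2 highest GAPDH ratios (0.048) gave it too, and over all alternatives the limma adjusted p ran from 0.0065 to 0.188. Whether bases that differ between the strains lie under its probes was not tested.

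No other gene of the lists of mitosis, replication, transcription factors or inhibitors passed in either fit. Of 24 tested mitotic genes outside the members 13 were below 0 (54.2%, beside 43.4% of all genes), with Kif23, the partner of Racgap1 in centralspindlin, at −0.23 ± 0.147. Of 20 tested genes of replication 15 were above 0 (25% below), with Rfc2 (0.18 ± 0.087), Rfc4 (0.18 ± 0.089), Ung (0.13 ± 0.077) and Chaf1b (0.24 ± 0.155) at the smallest p. Of 14 inhibitors 10 were above 0 (28.6% below), with Cdkn1c at 0.15 ± 0.093. Of 12 transcription factors 8 were above 0 (33.3% below), with E2f2 at −0.18 ± 0.151. Of 9 tested genes of juvenile growth 4 were below 0 (44.4%). Among them Igf1, insulin-like growth factor 1, ran from 200.8 over 294.7 to 386.6 in Dahl S and from 148.1 over 204.7 to 264.1 in S.SHR(2). It differed by −0.43 ± 0.137 (limma adjusted p = 0.76) and passed as lower with array sets as a block (−0.38 ± 0.075, limma adjusted p = 0.013, range over the alternatives 0.0017 to 0.9999), with strain ranges that overlapped.

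Markers of injury and of other cells were mostly lower in S.SHR(2) over 18 rats, though not within each set. All 11 tested injury markers, 8 of 8 macrophage, 8 of 8 fibroblast and matrix and 3 of 3 lymphocyte markers (of 10 listed) were below 0, beside 43.4% of all genes, with medians of −0.25, −0.19, −0.18 and −0.29, while 6 of 8 kidney epithelial markers were above 0. Within sets 1, 2 and 3 the counts below 0 were 6, 9 and 11 of 11 injury markers, 7, 5 and 5 of 8 macrophage markers, 8, 2 and 8 of 8 fibroblast and matrix markers, and 2, 2 and 3 of 3 lymphocyte markers. Of all genes 46.2%, 49.3% and 42.9% were below 0 in these sets. Of the injury markers, Spp1, osteopontin, passed with array sets as a block (−0.42 ± 0.087, limma adjusted p = 0.024), and none passed over 18 rats without the block. Within set 3 alone Cp (−0.77), Spp1 (−0.66), Clu (−0.60) and the collagen Col3a1 (−0.53) passed as lower in S.SHR(2) (limma adjusted p = 0.0066, 0.024, 0.022 and 0.030), and within sets 1 and 2 no marker of these lists passed. The mean centred log2 level of the injury markers ran from −0.71 to 1.24 in Dahl S and from −0.91 to 0.79 in S.SHR(2), and that of the macrophage markers from −0.38 to 0.66 and from −0.77 to 0.70. The highest injury levels, 0.88 to 1.24, were in Dahl S replicates 7 to 9. The mean level of the members in those 3 rats was −0.05 to 0.07, inside the span of −0.15 to 0.20 over all Dahl S rats. The part of these markers in the members' strain differences was not tested.

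Where a member had further probe sets, they did not all point one way. Of 7 members with more than 1 probe set past the filter, 4 had the same sign in all of them between the rats of labelled age (Ccnb1, Ccnd1, Kif11 and Nusap1), and 3 between the strains (Ccnd1, Cdc20 and Nusap1). Nusap1 gave a log2 strain difference of −0.24 and −0.30 with its probe sets, and a difference between the rats of labelled age of 0.67 and 0.60. The probe sets of Tk1 gave −0.10 and 0.18 between the strains. For members with such disagreement the value of the brightest probe set is uncertain.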

How the data were processed

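The authors deposited 1 linear intensity for each probe set on each array, judged linear from the values. The sources used here do not name the software behind them. Scanner files and detection calls were not used. Strain came from the labels. After 57 control probe sets were left out, 31042 remained, and their log2(intensity + 16) was quantile normalised, so fold changes of dim genes are understated. A filter dropped the dimmest 40% by mean (log2 under 5.48). Probe sets naming 1 gene (20826, of which 20758 matched GRCr8 gene IDs) were used, and no coordinates are given for them. Strains were compared with limma 3.58.1 in R 4.3.3 (lmFit, eBayes with trend, two-sided, no covariates, Benjamini-Hochberg over 10483 genes, call at adjusted p under 0.05). The fit was tried on simulated data with independent noise for each gene and array. Those data held no sets of arrays, so they cannot show how the fit behaves where such sets exist. Array sets served as a block in a further fit, chosen after the data were seen. P values measure the spread between rats of mixed age, and the number of arrays limits the precision. Members and lists (other replication, mitosis, transcription factor, inhibitor, juvenile growth and marker genes) were chosen with earlier results of these data known. All members are named. Values were given for the 10 of smallest p, the 10 of largest age difference and up to 4 genes of each list by the same measures, and other values were chosen after they were seen. Plots used matplotlib 3.10.9.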

Additional observations from a re-analysis of the deposited data

How the results depend on the processing

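No member was called under any alternative tried. Of 10483 genes 6 were called, 2 higher and 4 lower, against 11 with values as deposited, 10 with probe sets averaged by gene, 21 with array weights, 29 and 112 with 1 and 3 residual components as covariates, 55 with array sets as a block and 26 with the 2 main sets as a block. With arrays centred on their medians 5 were higher and 3 lower. Leaving out 1 rat gave 6 to 14, with 14 without Dahl S replicate 1 and 10 without Dahl S replicate 2, and 0 members called. Without 1 rat, 12 to 19 members were lower in S.SHR(2), with a median of −0.063 to 0.012. With 60% of dim probe sets left out only 8 members were tested, since most are dim, and 2 of them were lower in S.SHR(2), 1 was at least 1.5-fold higher in the rat of 4 weeks, and the median age difference was 0.066. With a pseudocount of 64, 3 of 28 members were at least 1.5-fold higher in that rat. With the pseudocount of 16, 3 of 27 were higher by at least 2-fold. The sign of the strain difference turned for Tk1 with the mean of its probe sets (0.041), for Cdk1 without Dahl S replicate 2 (0.022, with −0.173 to 0.022 over the rats left out), and for Ccnd1 when S.SHR(2) replicate 1 and Dahl S replicate 5, whose GAPDH ratios were highest, were left out (−0.022). That fit and both block fits were added after the data were seen. No paired analysis was possible because replicate numbers were given in accession order and pair nothing. Signals near the array median limit what can be seen for most members.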
